A study of Caenorhabditis elegans with 2 samples.

Results

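The transfer RNA (tRNA) genes on chromosome X of Caenorhabditis elegans were taken as all genes of biotype tRNA on that chromosome in the Ensembl annotation of WBcel235. This gave 276 genes, 45.1% of the 612 nuclear tRNA genes, and the other 336 lie on the 5 autosomes. A gene was called bound when the summit of a peak in the thresholded list lay within 250 bp of any part of it. The peaks come from chromatin immunoprecipitation followed by sequencing (ChIP-seq), in which NHR-23 carrying an eGFP tag was precipitated from whole L3 larvae of pooled sex. The animals were of strain OP43, which carries the mutation unc-119(ed3) on chromosome III and the transgene wgIs43, targeting nhr-23. Both biological replicates are of this 1 kind, so no test between conditions was possible. The labels give neither the promoter nor the copy number of the transgene. Whole larvae mix all tissues, and the tissue in which a site was occupied cannot be told from them. The labels name a control; whether a control library shows peaks at these genes was not analysed here.

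tRNA genes are transcribed by RNA polymerase III from promoter elements inside the gene, the A box and the B box. The factor TFIIIC binds these boxes and places TFIIIB, which holds the TATA-binding protein, just upstream of the start, and TFIIIB recruits the polymerase. Most tRNAs are encoded by many genes with the same sequence, so identical genes can sit in quite different surroundings. NHR-23 is a nuclear hormone receptor required for molting, and receptors of its family bind DNA at elements built on AGGTCA.

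Of the 276 X tRNA genes, 69 were bound (25.0%, exact 95% binomial interval 20 to 30.5). Of the 336 autosomal tRNA genes, 71 were bound (21.1%, interval 16.9 to 25.9), and over all nuclear tRNA genes the share was 22.9%. The X share exceeded the autosomal one by 3.87 percentage points, and the intervals overlap. Intervals cover counting error only, and neighbouring genes can share a summit. The difference was not tested, and no statement on X alone is made from it. Under the same rule 12.8% of the 5746 other annotated genes on X were bound. Short non-coding genes are closer in length to tRNA genes. Of the 110 snoRNA, miRNA and snRNA genes on X, 7 were bound (6.36%).

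When all summits were moved along their chromosomes in 20 fixed shifts, from 5 to 5000 kb in each direction, 3 to 15 X tRNA genes had a summit within 250 bp, with a median of 8.5 genes. The 69 bound X genes lie above all of these counts. Autosomal tRNA genes gave 71 as called, against 1 to 18 in the shifts, with a median of 7.5. Both sets therefore held far more summits than the same peaks gave at other places with their spacing kept.

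**Figure D1:**
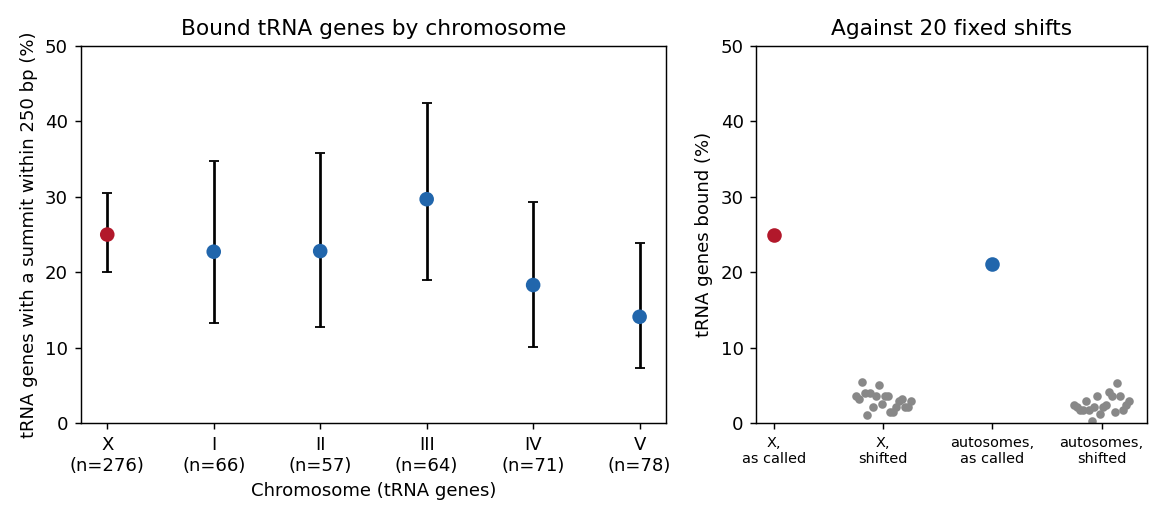
Left, the share of tRNA genes with a thresholded summit within 250 bp on each chromosome (points, percent) with exact 95% binomial intervals (bars). Right, the same share for X and for all autosomes as called and under each of 20 fixed shifts of the summits (grey points). The X share of 25.0% sits inside the range of the autosomes, 14.1 to 29.7%, and the shifted shares stay at or below 5.43%.

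Across the autosomes the bound share ran from 11 of 78 tRNA genes on chromosome V (14.1%) and 13 of 71 on IV (18.3%) to 19 of 64 on III (29.7%). Chromosomes I and II had 15 of 66 (22.7%) and 13 of 57 (22.8%). The X value lies below that of III and above the other 4, and its interval overlaps that of every autosome.

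The X chromosome carries its tRNA genes densely, at 15.6 per Mb against 4.07 on autosomes. Of the 998 thresholded summits on X, 60 lay within 250 bp of a tRNA gene (6.01%, exact interval 4.62 to 7.67). On autosomes 63 of 3946 did (1.60%, interval 1.23 to 2.04), with a range of 1.30 to 1.81% over the 5 chromosomes. Shifted summits gave 3 to 13 such summits on X, with a median of 7. All peaks lay at 56.3 per Mb on X and 47.8 on autosomes, a ratio of 1.18. Without the summits at tRNA genes the values were 52.9 on X and 47.0 on autosomes, a ratio of 1.13.

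Gene sequences of 6 of the 10 strongest bound X members are shown because they carry the internal promoter. They were read from the RefSeq WBcel235 genome 5′ to 3′ on the gene's own strand. Capitals mark the B box core GTTCGANNC, and the genes printed with no capitals do not hold these exact letters.
R04A9.t1 (tRNA-Gln, chrX:410391-410462, plus strand): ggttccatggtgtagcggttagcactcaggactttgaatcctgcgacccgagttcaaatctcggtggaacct
T18D3.t1 (tRNA-Ala, chrX:12458176-12458247, minus strand): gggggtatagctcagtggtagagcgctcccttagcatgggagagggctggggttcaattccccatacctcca
R11.t1 (tRNA-Tyr, chrX:16209769-16209852, minus strand): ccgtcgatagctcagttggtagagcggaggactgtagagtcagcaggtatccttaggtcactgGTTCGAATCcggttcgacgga
C33G3.t2 (tRNA-Lys, chrX:14063946-14064018, minus strand): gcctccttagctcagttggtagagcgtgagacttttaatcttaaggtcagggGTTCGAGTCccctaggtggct
C04E7.t1 (tRNA-Leu, chrX:353255-353336, minus strand): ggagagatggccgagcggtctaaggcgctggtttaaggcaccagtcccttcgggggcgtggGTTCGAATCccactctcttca
C04A11.t1 (tRNA-Leu, chrX:13665555-13665673, plus strand): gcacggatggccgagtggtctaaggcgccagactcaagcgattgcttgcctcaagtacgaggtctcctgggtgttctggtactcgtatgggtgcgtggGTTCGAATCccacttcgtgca

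The B box core was in 52 of the 69 bound X genes (75.4%) and in 148 of the 207 unbound ones (71.5%), and in 241 of the 336 autosomal genes (71.7%). The A box was found in the first 35 bases of all 69 bound X genes and of 201 of the 207 unbound ones. Its letters are not spelled out here. The boxes were thus at similar shares in bound and unbound members, and the difference was not tested. For 56 of the 69 bound X genes an identical copy on X, boxes included, was not bound. The same boxes therefore stand in both groups, and these shares cannot show whether the boxes matter to binding.

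The strongest peak at an X tRNA gene lay at C28G1.t1, a tRNA-Glu gene at chrX:8836113-8836184 on the plus strand. Its pooled signal, the authors' peak caller's own value per peak, was 169.3, rank 303 of 4944. The replicates gave signals of 82.8 (rank 278 in replicate 1's list) and 92.8 (rank 330 in replicate 2's list), so both placed it near the top. The summit lay 114 bp upstream of the 5′ end of the tRNA gene. This gene overlaps an exon of the protein-coding gene C28G1.2 on the same strand, and a protein-coding start lies 97 bp from it, so the peak cannot be given to the tRNA gene alone.

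The next member, R04A9.t1 (tRNA-Gln), had a signal of 131.5 (rank 572), with 62.3 in replicate 1 and 70.3 in replicate 2. Its summit lay 133 bp upstream. The gene lies in an intron of ZK1193.2, on the opposite strand, and 448 bp from the nearest protein-coding start. T18D3.t1 (tRNA-Ala) had a signal of 102.0 (rank 979), with 70.7 in replicate 1 (rank 407) and 37.2 in replicate 2 (rank 2306). Here the replicates stood further apart, and the summit lay 12 bp inside the gene, with the nearest protein-coding start 3410 bp from the gene. R11.t1 (tRNA-Tyr) had a signal of 99.4 (rank 1034), with 56.9 in replicate 1 and 47.2 in replicate 2, and C33G3.t2 (tRNA-Lys) one of 91.3 (rank 1240), with 41.2 and 52.0 in replicates 1 and 2. Both of these summits were upstream, by 27 and 24 bp.

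The remaining genes among the 10 strongest ranked 1597 to 1679. They were C04E7.t1 and C04A11.t1 (tRNA-Leu), F52H2.t1 (tRNA-Asp), and T10B10.t2 and T10B10.t1 (tRNA-Gly), with signals from 77.2 to 79.5. The last 2 genes point away from each other, share 1 summit between them and form the strongest of the 11 loci with 2 bound genes, the most in any X locus. In replicate 1 the signals of these 5 genes ran from 37.0 to 48.5, and in replicate 2 from 33.7 to 45.6. The strongest autosomal member was F13G11.t1, a tRNA-Arg gene on chromosome IV, with a signal of 202.4 (rank 197), though its summit lay 236 bp from the gene.

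Over all 69 bound X genes the pooled signal ran from 34.4 to 169.3, with a median of 56.2, and over the 71 bound autosomal genes from 34.6 to 202.4, with a median of 48.5. The median over all peaks was 60.4. Summits at X tRNA genes had a median rank of 2834.5 and X summits elsewhere one of 2350. Among the 1000 strongest peaks of the list were 3 of the 60 X summits at tRNA genes and 195 of the 938 elsewhere on X (20.8%). The X tRNA genes therefore sat in the middle and lower range of the list and rarely at its top.

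The replicates were read next. Of the 69 bound X genes, 67 had a summit within 250 bp in replicate 1's full list, 67 in replicate 2's and 65 in both. These lists are long, with 30000 and 27191 peaks, so presence alone says little. Among each replicate's own 4944 strongest peaks, 50 of the 69 were found in both (72.5%), 8 in replicate 1 only, 8 in replicate 2 only and 3 in neither. Of the 71 bound autosomal genes, 40 were among the strongest of both (56.3%). The thresholded list was made by the authors from these same replicates, so this is a description of the members and no independent test. In replicate 1 the signal at bound X genes ran from 9.98 to 82.8, with a median of 27.7, and in replicate 2 from 10.5 to 92.8, with a median of 30.6.

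**Figure D2:**
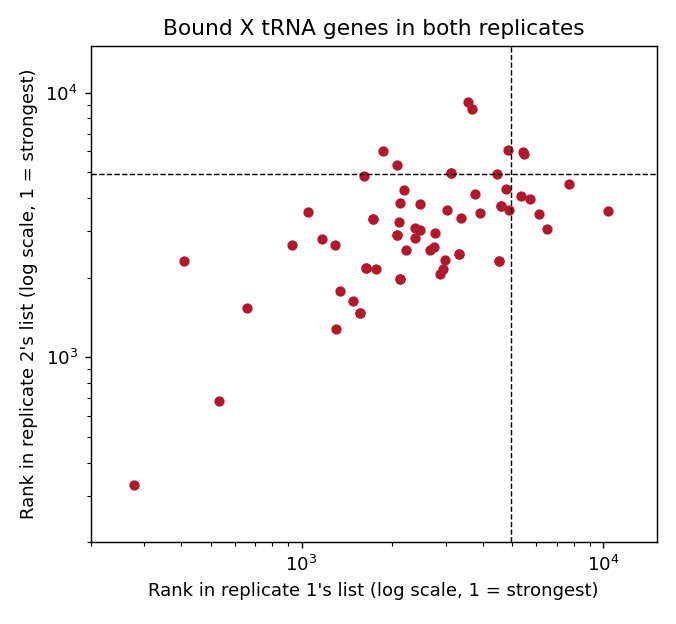
Rank of the strongest peak within 250 bp of each bound X tRNA gene in replicate 1's list (x axis) and replicate 2's list (y axis), both on log scales, for the 65 genes found in both lists; genes sharing a summit overlie each other. Dashed lines mark rank 4944, and 50 genes lie inside both lines.

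Of the 4 bound genes missing from a list, sup-7 is a tRNA-Trp gene known for amber suppressor mutations, which let the tRNA read a stop codon. It was named after its values were seen. Its signal was 51.0 (rank 3141), with 24.0 in replicate 1 and no summit within 250 bp in replicate 2. C25F6.t4 also lacked one in replicate 2, while T06H11.t2 and T06H11.t3, which share a summit, lacked one in replicate 1.

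The summits lay close to the genes, well inside the window that defined a bound gene. The distance from a bound gene to its nearest summit had a median of 24 bp on X, and 49 of the 69 bound X genes had a summit within 50 bp (71%). The signed distance from the 5′ end was taken to the strongest summit in the window. It ran from −190 to 322 bp, with a median of −17 bp, just upstream of the gene's start. The summits of the replicates can stand further apart than this offset. At T18D3.t1 the summit of replicate 1 lay 17 bp beyond the 3′ end and that of replicate 2 33 bp upstream. A summit shared by neighbouring genes was counted for each of them, which concerns 20 of the 69 bound X genes. Counted per gene, the strongest summit lay upstream of the 5′ end for 40 genes, inside the gene for 15 and beyond the 3′ end for 14. Bound autosomal genes showed a median of −16 bp, with 41, 18 and 12 in the same order. With shared summits again counted for each gene, the 100 bp just upstream of the 5′ end held 123.2 summits per 1000 X genes. The mean over the shifts was 4.89.

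**Figure D3:**
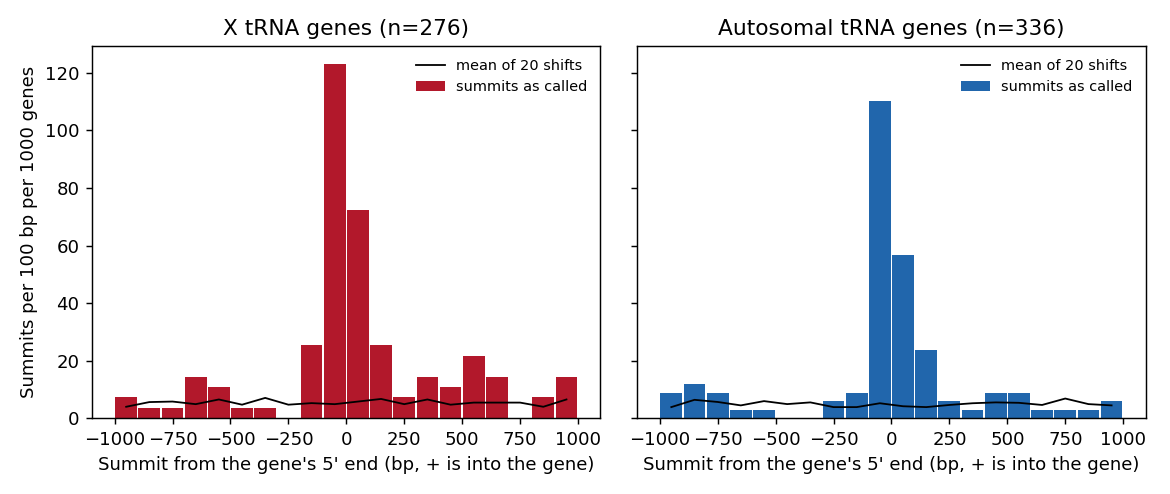
Summits per 100 bp and per 1000 genes around the 5′ end of the 276 X tRNA genes (left) and the 336 autosomal ones (right), with positive distances into the gene; bars are the summits as called and the line is the mean of 20 fixed shifts. In both panels the highest bar is the 100 bp upstream of the 5′ end, at 123.2 for X and 110.1 for autosomes. A summit near several genes is counted for each of them.

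At the edge of the window, the bound members farthest from their summit were T06H11.t3 at exactly 250 bp, F22F1.t4 at 208 bp and C16B8.t3 at 190 bp. A neighbouring tRNA gene lay nearer to the same summit in each case. The closest unbound members were C18A11.t2 at 286 bp, with a pooled peak at rank 5202 below the threshold 84 bp away, ZK154.t2 at 294 bp and C25F6.t3 at 315 bp. Over the 207 unbound X genes the nearest thresholded summit was a median of 8477 bp away and at most 84797 bp.

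Protein-coding promoters were near some of the members. Of the 83 X tRNA genes inside a promoter window, which ran 1500 bp up and 500 bp down from a protein-coding start, 18 were bound (21.7%), and of the 193 outside such windows, 51 were (26.4%). Bound X genes lay a median of 1778 bp from the nearest protein-coding start and unbound ones 1797 bp. Of the 60 summits at X tRNA genes, 16 lay in a promoter window (26.7%), as did 518 of the 938 other X summits (55.2%). Most summits at X tRNA genes thus lay outside the protein-coding promoter windows, as did 193 of the 276 genes themselves. How far the share of these summits follows from the choice of summits at tRNA genes was not tested.

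Position inside other genes gave similar shares. Of 95 X tRNA genes within introns 22 were bound (23.2%), and of 180 outside protein-coding genes 46 (25.6%). For the 51 tRNA genes on the strand of their host the count was 12, and for the 45 on the opposite strand 11. On each strand of the chromosome 25.0% were bound, 34 of 136 on the plus strand and 35 of 140 on the minus strand.

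Many X tRNA genes lie in small groups. Genes less than 500 bp apart were joined into loci, which gave 211 loci, 168 of them with 1 gene. Of the 60 genes in loci of 2, 21 were bound (35%), of the 168 single genes 41 (24.4%), and of the 48 genes in loci of 3 or more 7 (14.6%). Counted once per locus, 12 of the 30 loci of 2 genes held a bound gene (40%). In all, 20 of the 69 bound genes had the same strongest summit as another tRNA gene, and 16 of these 20 lie in loci of 2. The largest locus holds 6 tRNA-His genes, F28H6.t2 to F28H6.t7 at chrX:14135045-14137010, and none was bound. Peaks of the pooled list at ranks 7089 and 10132, below the authors' threshold, lay within 250 bp of 4 of these 6.

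By amino acid, bound genes were spread widely. RefSeq gives a product for 273 of the 276 genes, and 17 of the 20 amino acids on X had at least 1 bound gene. The counts were highest for glycine with 8 of 20, proline with 7 of 20, and aspartate with 6 of 12. Glutamate (6 of 23), leucine (6 of 17), serine (6 of 18), alanine (5 of 13) and lysine (5 of 18) followed. Between X and the autosomes the shares went either way. Arginine, the most numerous on X, had 3 of 27 bound on X, against 8 of 17 on autosomes, and threonine 1 of 14, against 6 of 20. Higher on X were asparagine with 3 of 6, against 0 of 14 on autosomes, and tyrosine with 3 of 8, against 1 of 11. Aspartate had 6 of 12 on X, against 3 of 15 on autosomes, and proline 7 of 20, against 3 of 22. No X gene was bound for methionine (0 of 8), cysteine (0 of 7) or phenylalanine (0 of 6), while each of these had 2 bound genes on autosomes. These groups are small and share summits, and no difference between amino acids was tested.

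**Figure D4:**
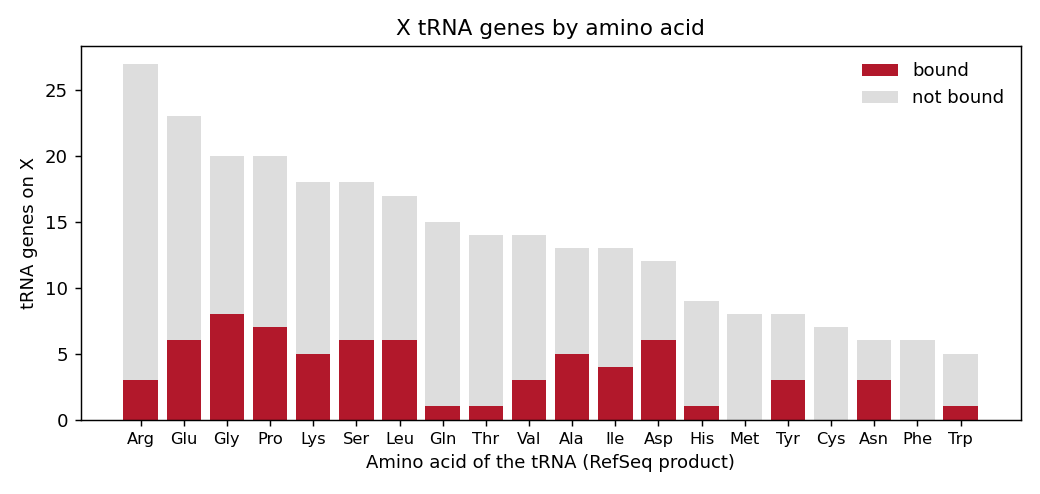
X tRNA genes by amino acid of the RefSeq product, with bound genes in red and the rest in grey, ordered by the number of genes. Arginine has the most genes and 3 bound, glycine has the most bound with 8 of 20, and methionine, cysteine and phenylalanine have none.

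The 276 X genes have 106 distinct sequences, and 219 of the genes have an identical copy elsewhere among nuclear tRNA genes. Of these 219, 59 were bound (26.9%), and of the 57 with a sequence of their own 10 were (17.5%). On autosomes the shares were 58 of 250 (23.2%) and 13 of 86 (15.1%). How the authors treated reads that match several places is not given in the sources used here, and its part in these shares was not tested. Of the 69 bound X genes, 56 have an identical copy on X that was not bound. The copies share the sequence of the gene. What surrounds bound and unbound copies of the same sequence was not compared over all such sets, and its part in the calls was not tested.

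The tRNA-Tyr genes are given as an example, chosen after their values were seen. Their sequence was found at no autosomal tRNA gene. The same holds for a tRNA-Arg sequence with 3 of 10 X copies bound and a tRNA-Leu sequence with 3 of 9 bound. All 6 X copies share the 84 bases printed above for R11.t1, and 2 were bound. R11.t1 had a pooled signal of 99.4 and C02B4.t2 one of 48.5 (rank 3346), with 34.4 in replicate 1 and 16.9 in replicate 2. The neighbours R11.t2, R11.t3 and R11.t4 lie in the same locus as R11.t1 and were not bound. R11.t2 had no summit within 250 bp in the pooled list or in either replicate, R11.t3 only a signal of 3.93 in replicate 2, and R11.t4 one of 5.87 in the pooled list. The sixth copy, F56F10.t1, had a pooled signal of 10.6. The upstream sequences of the 2 bound copies and of 3 unbound ones are printed 5′ to 3′ on the gene's strand, ending at the base before the gene. Capitals mark GAGAGA or its reverse complement TCTCTC.
R11.t1, 100 bases upstream (chrX:16209853-16209952, minus strand): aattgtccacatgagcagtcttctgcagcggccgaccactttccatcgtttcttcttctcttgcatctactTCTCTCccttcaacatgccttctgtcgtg
C02B4.t2, 100 bases upstream (chrX:12665128-12665227, plus strand): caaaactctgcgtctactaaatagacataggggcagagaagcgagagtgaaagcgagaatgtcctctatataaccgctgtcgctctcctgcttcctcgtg
R11.t2, 100 bases upstream (chrX:16209312-16209411, minus strand): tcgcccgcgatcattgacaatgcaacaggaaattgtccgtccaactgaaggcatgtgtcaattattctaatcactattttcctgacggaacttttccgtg
R11.t3, 100 bases upstream (chrX:16208909-16209008, minus strand): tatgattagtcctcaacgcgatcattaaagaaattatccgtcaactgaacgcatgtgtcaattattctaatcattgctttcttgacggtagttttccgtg
R11.t4, 100 bases upstream (chrX:16208347-16208446, minus strand): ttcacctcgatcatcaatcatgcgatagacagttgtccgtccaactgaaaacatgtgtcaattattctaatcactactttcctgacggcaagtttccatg

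R11.t1 holds TCTCTC once in these bases, and R11.t2, R11.t3 and R11.t4 hold neither string. C02B4.t2, which was bound, holds neither string as well. The string and the stretch were chosen after values were seen. The exact intervals below account neither for that choice nor for neighbouring genes that share a summit or upstream bases. Over all members, GAGAGA on either strand from 100 bases upstream to the 3′ end of the gene was in 28 of 69 bound X genes (40.6%, exact interval 28.9 to 53.1) and in 34 of 207 unbound ones (16.4%, interval 11.7 to 22.2). On autosomes it was in 22 of 71 bound genes (31.0%) and 43 of 265 unbound ones (16.2%). Of all 172-base tiles of X, 8.18% held it. The 100 bases upstream of bound X genes had a median A and T content of 57%, and those of unbound ones 62%; its part in these counts was not tested. In the 100 bases upstream alone, 26 of 69 bound X genes (37.7%) and 27 of 207 unbound ones (13.0%) held the string. Most bound members thus held none there. Further examples upstream of bound members follow, chosen for their repeated copies of the string, which can overlap.
C04A11.t1, 100 bases upstream (chrX:13665455-13665554, plus strand): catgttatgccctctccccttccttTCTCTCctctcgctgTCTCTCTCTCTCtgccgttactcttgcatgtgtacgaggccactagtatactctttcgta
C06G1.t1, 100 bases upstream (chrX:16634902-16635001, minus strand): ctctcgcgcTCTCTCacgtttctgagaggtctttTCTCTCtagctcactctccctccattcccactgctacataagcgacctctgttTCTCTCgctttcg

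Strings at the summits themselves were also counted. The nuclear receptor string AGGTCA, on either strand, lay within 50 bp of 5 of the 60 summits at X tRNA genes (8.33%), of 90 of the 938 other X summits (9.59%) and in 2.64% of 101-base tiles of X. GGGTCA was at 0 of the 60 (interval up to 5.96%) and at 56 of the 938 (5.97%), against 1.63% of tiles. GAGAGA was at 17 of the 60 (28.3%) and 220 of the 938 (23.5%), against 4.91% of tiles. In the stretch from 100 bases upstream to the 3′ end, AGGTCA was in 7 of 69 bound and 21 of 207 unbound X genes, 10.1% of each. The B box core lay at 15 of the 60 (25.0%) and 6 of the 938 (0.640%), against 0.677% of tiles, which follows from the choice of summits at tRNA genes. A match is a description and not a site.

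The other genes of the pathway were read from a fixed list. A protein-coding gene was called bound when a summit fell in the promoter window of any of its annotated starts, which held for 19.4% of all 19973 protein-coding genes. Of 10 genes of RNA polymerase III transcription 2 were bound. They were rpac-19, a subunit shared by polymerases I and III (signal 85.8, rank 1371, summit 100 bp upstream), and tftc-1, a subunit of TFIIIC (signal 52.6, rank 3025, 154 bp upstream). Not bound were the polymerase subunit genes rpc-1, rpc-2 and rpac-40, tbp-1 for the TATA-binding protein, brf-1 of TFIIIB, the repressor gene mafr-1, and tftc-3 and tftc-5.

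All 5 genes of tRNA maturation on the list were bound. The strongest was pus-1, a pseudouridine synthase (signal 98.2, rank 1065, summit 207 bp upstream). The others were popl-1, a homologue of a ribonuclease P protein (rank 1309), hoe-1, which encodes the tRNA 3′ processing enzyme tRNase Z (rank 1655), rtcb-1, the tRNA ligase (rank 2528), and xpo-3, a homologue of the tRNA exporter (rank 4267). Summits at popl-1, hoe-1 and xpo-3 lay 1016 to 1389 bp upstream, toward the far end of the window. With 5 genes, the count says little beyond these values. The RNA of ribonuclease P, rpr-1, and that of ribonuclease MRP, mrpr-1, are polymerase III transcripts in other animals. Both had a summit within 250 bp, with signals of 56.3 (rank 2737, 34 bp away) and 49.4 (rank 3268, 28 bp away). None of the 20 nuclear rRNA genes, taken by biotype whichever polymerase transcribes them, had one. Most of these are rrn-4 genes in a single stretch of chromosome V, 150051 to 165486 bp from the nearest summit.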

How the data were processed

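Peak lists on ce11 were analysed for 2 biological replicates of 1 group. Per the deposited text files, the authors called peaks for each replicate and on the pooled alignments, with a control, and made the thresholded list of 4944 peaks by comparing the pooled and replicate lists. For the aligner, peak caller, threshold and read depth, these were not given in the sources used here, so the precision behind a single peak is unknown. The authors' deposited signal value per peak was used only to rank and describe peaks within a list. Ensembl release 115 and RefSeq, both on WBcel235 (the ce11 assembly), gave genes, products and sequence, and 612 of 612 nuclear tRNA genes matched between them by WormBase identifier and position.

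Coordinates are 1-based, with the summit at column 2 plus column 10 plus 1. Intervals are exact 95% binomial (Clopper-Pearson). No test was run, since there is 1 group. Shifts were circular along each chromosome. Distance and assignment functions were tested on simulated data. Python 3.11.15, numpy 2.4.6, scipy 1.17.1 and pandas 2.3.3 were used. Genes were named by a rule: the 10 strongest bound X genes, the 3 on each side of the 250 bp limit, the largest locus and the strongest of the loci tied for most bound genes, the strongest autosomal member and the bound members of the polymerase III list. Any other X tRNA gene named (sup-7 and the other tRNA-Trp genes, C25F6.t4, the tRNA-Tyr copies other than R11.t1, C06G1.t1, rte-1, C48C5.t1, C48C5.t3, M163.t2, and T06H11.t2, named with its neighbour) was chosen after its values were seen. The members and lists were chosen with earlier results of these data known. The 22 mitochondrial tRNA genes and the ce10 lists were not used here.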

Additional observations from a re-analysis of the deposited data

Results flagged for a closer look

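Below the authors' threshold the pooled list holds 25056 further peaks, which enter none of the bound calls. Of the 207 unbound X tRNA genes, 91 (44.0%) had the summit of such a peak within 250 bp, against 13 to 31 of the 207 when these summits were moved by the 20 fixed shifts (median 22.5). Of the 265 unbound autosomal tRNA genes 130 did (49.1%), against 26 to 45 in the shifts. This was picked out because it is a signal in peaks outside the thresholded list. No explanation was tested. The remaining 116 unbound X genes had no pooled summit within 250 bp.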

How the results depend on the processing

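Each of the 4 main values was recomputed under 14 alternatives, of which 3 (summits with no 1 added, peaks strong in both replicates, genes without an identical copy) were chosen after seeing the data. The stronger 2472 peaks gave 25 bound X genes, 17 bound autosomal genes and 21 X summits at tRNA genes, and every peak of the pooled list gave 160, 201 and 145. With the pooled list the difference between X and autosomes turned to −1.85 percentage points (58.0% of X and 59.8% of autosomal genes). Genes without an identical copy, which are fewer by construction, gave 10 bound on X, 13 on autosomes and 10 X summits. Outside protein-coding promoter windows, where 187 autosomal genes remain, 42 were bound (22.5%, against 21.1% of all autosomal tRNA genes). With the 3332 thresholded peaks strong in both replicates 39 autosomal genes were bound. There X kept 18.1% and autosomes 11.6%. When the thresholded list was replaced by the 4944 strongest peaks of a single replicate, 71 to 77 X genes and 64 to 74 autosomal genes were bound, the difference was 5.87 to 6.68 points, and 59 to 67 X summits lay at tRNA genes. The other alternatives (windows of 100, 500 and 1000 bp, overlap with the peak, distance from the 5′ end, loci, and summits with no 1 added) moved the counts by less than 1.5 times, with the difference between 3.29 and 8.42 points; the last of them ended the call of T06H11.t3. No paired analysis was possible because there is 1 group. The lists give no depth, so what depth limits is unknown.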

Other observations

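X tRNA genes were bound along the whole chromosome. In 3 stretches of equal length, from left to right, 17 of 51, 20 of 107 and 32 of 118 were bound (33.3, 18.7 and 27.1%). The tRNA genes themselves were fewer in the left stretch, while peaks numbered 281, 354 and 363 in the same order.

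Of the 207 unbound X genes, 4 had a summit among the 4944 strongest peaks of both replicates. At rte-1 (tRNA-Glu) the ranks were 2359 in replicate 1 and 3083 in replicate 2, and at C48C5.t1 and C48C5.t3 (tRNA-Pro), which share a peak, 2745 and 4910. No summit of the pooled list lay within 250 bp of these 3 genes. At M163.t2 (tRNA-Lys) the ranks were 4815 and 4603, and the pooled rank was 5478, below the threshold.

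Besides sup-7, the X tRNA-Trp genes include sup-21, sup-28 and sup-33, also known for amber suppressors. Neither these 3 nor rtw-5 was bound, and the nearest thresholded summits to the 3 lay 18948, 84797 and 83869 bp away. These genes were named after their values were seen.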
